A study of Homo sapiens with 6 samples.

Results

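The genes described here are 59 factors of RNA decay and mRNA 3′ end processing, taken by gene symbol from a table of alternative splicing in SKNBE2 cells. They fall into 7 roles: 11 genes of the nuclear and cytoplasmic exosome, 9 factors of nonsense-mediated decay, 3 of the exon junction complex, 7 of decapping and 5′ to 3′ decay, 11 of deadenylation, 14 of cleavage and polyadenylation, and 4 poly(A)-binding proteins. SKNBE2 is an established human neuroblastoma line, labelled as a neuroblast type with amplified MYCN. A Control group of 3 libraries was compared with 3 libraries from cells kept for 4 days in DFMO (difluoromethylornithine) at 250 µM, and the amplified MYCN is shared by both groups. DFMO blocks ornithine decarboxylase, the first enzyme of polyamine synthesis, so the comparison asks how these genes are spliced when that pathway is inhibited. What the Control cells received is not stated, and nothing in the labels says whether the 3 libraries of a group came from separate cultures. The spread between these libraries may therefore be technical. The p-values rest on that spread only in part, because each event's variance also draws on a trend fitted over its class. For introns, acceptors and donors they rest almost wholly on that trend, and for exons more on it than on the spread.

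The 59 genes held 3889 of the 721551 listed events. An event is a cassette exon, a retained intron, or a choice between alternative 3′ splice sites (acceptors) or 5′ splice sites (donors), and its value is the percent of reads that show inclusion, retention or use of the site. Of the member events, 3218 had a coverage score of LOW, OK or SOK and 10 or more reads in each of the 6 libraries, and 2840 remained once each 2-site event was counted a single time. A test was run on the 129 of these whose mean percent lay between 5 and 95, in 44 of the 59 genes: 48 exons, 31 introns, 28 acceptors and 22 donors. Reads over all events ran from 77648922 to 103250467 per library. All 12 noradrenergic neuroblastoma markers checked were measured, and their summed level was 901.0 to 931.8 per 1000000 exon-event reads in Control and 1034.8 to 1048.3 with DFMO. VIM and THY1 were the 2 of 8 mesenchymal markers with a measurable level (summed 56.0 to 59.5 and 62.1 to 64.0), and 0 of 5 blood and 0 of 4 epithelial markers had one. The part of these shifts in the results below was not tested.

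Most mRNAs acquire their 3′ end when the cleavage and polyadenylation machinery (CPSF, CstF, the cleavage factors and poly(A) polymerase) cuts the nascent RNA and adds a poly(A) tail, which poly(A)-binding proteins then coat. Decay usually begins with removal of the tail by the CCR4-NOT and PAN2-PAN3 deadenylases and proceeds by decapping and XRN1 digestion from the 5′ end, or by the exosome from the 3′ end. Nonsense-mediated decay, guided by exon junction complexes and the UPF and SMG proteins, removes mRNAs with premature stop codons, and genes of RNA processing often have transcripts that use it or that end early inside an intron.

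The sequences of 4 exons are shown because they passed an adjusted p of 0.05 in DFMO against Control, the last of them with a difference just under the 10 points needed for a call. Exon bases are in capitals, and the lower-case bases on either side are the 15 bases of the neighbouring exons in the annotated GENCODE v29 transcript on GRCh38, 5′ to 3′ in the direction of the gene. The DIS3 exons (chr13:72780846-72781003 and chr13:72781289-72781356, minus strand) have the same neighbours. They are each the second of 21 exons, in coding transcripts of 958 and 928 codons. The FIP1L1 exons (chr4:53379073-53379117 and chr4:53414615-53414722, plus strand) are exons 2 and 11 of 18 in a coding transcript of 594 codons.
DIS3 158-nt exon: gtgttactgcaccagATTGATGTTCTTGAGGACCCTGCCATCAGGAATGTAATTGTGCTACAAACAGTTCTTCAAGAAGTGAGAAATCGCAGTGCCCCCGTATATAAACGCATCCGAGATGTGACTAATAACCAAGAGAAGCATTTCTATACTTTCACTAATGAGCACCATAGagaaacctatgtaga
DIS3 68-nt exon: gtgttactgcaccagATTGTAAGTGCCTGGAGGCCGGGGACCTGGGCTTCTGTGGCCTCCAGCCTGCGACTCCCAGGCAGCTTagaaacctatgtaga
FIP1L1 45-nt exon: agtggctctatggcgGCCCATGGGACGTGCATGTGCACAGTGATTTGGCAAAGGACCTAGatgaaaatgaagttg
FIP1L1 108-nt exon: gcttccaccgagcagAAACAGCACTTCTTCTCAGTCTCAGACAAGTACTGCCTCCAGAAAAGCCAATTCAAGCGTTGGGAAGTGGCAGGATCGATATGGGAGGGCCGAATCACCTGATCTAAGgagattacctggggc

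For the introns of CSTF3, PCF11 and PABPN1 that changed, the 5′ splice site is shown, with the last 12 exon bases in lower case and the first 18 intron bases in capitals. They were read from annotated transcripts that run into or across the intron. Each of the 3 introns opens with GT.
CSTF3 33248-nt intron: attgaagcagagGTTACTATTTTATTTTAT
PCF11 3695-nt intron: caaaccgccaagGTTTTTATACACCCCGCA
PABPN1 957-nt intron: tcgcgtctacagGTCAGGATAGATGGGCTG

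Of the 129 tested member events, 5 were called, in 4 genes: DIS3, FIP1L1, CSTF3 and PCF11. In CSTF3 and PCF11 the retention percent comes mostly from reads at the 5′ end of the intron. Whether splicing itself changed there was not tested. An event was called when its limma p, adjusted by Benjamini-Hochberg over all tested events of its class in the whole table, fell under 0.05 and the means of Control and DFMO lay 10 or more points apart. Of 48 member exons, 2 were called higher with DFMO and 1 lower, against 3.45% of all 7500 tested exons, a share at which 48 exons would hold 1.66 calls. Of 31 member introns, 2 were called, both higher, against 3.8% of all 3683, which would give 1.18. Among the 28 acceptors limma called 0, with 6 at an unadjusted p below 0.05 and 2 called by a quasi-binomial test, while 1.16% of all acceptors were called. It also called 0 of the 22 donors, with 1 at an unadjusted p below 0.05 and 0 by the quasi-binomial test, against 2.28% of all donors. Whatever the size, 5 member exons (5.72% of all exons) and 3 member introns (8.58% of all introns) passed the adjusted p. Member calls were thus few, and close in number to what the background shares give.

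**Figure D1:**
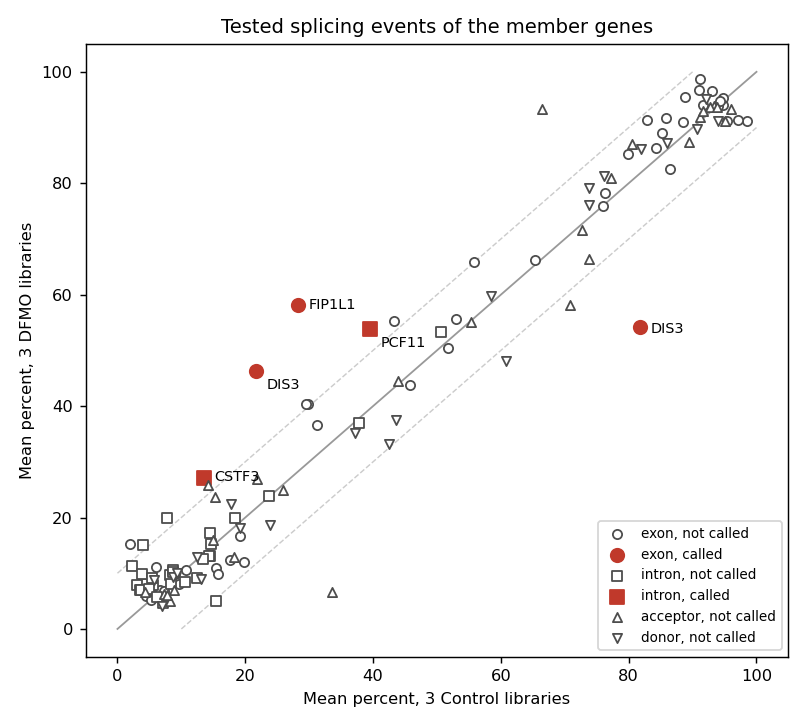
Mean percent of each of the 129 tested member events in the 3 Control libraries (x axis) and the 3 DFMO libraries (y axis), by class; the solid line marks equal percents and the dashed lines a difference of 10 points. The 5 called events, filled, lie outside the dashed lines, with 1 DIS3 exon below and 4 events above.

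The remaining member events mostly had small differences. Of the 129, 75 were higher and 54 lower with DFMO, and the median difference was 0.70 points, beside 0.60 points over all 16348 tested events. The median size was 2.77 points among members and 3.35 points over all events. Differences of at least 10 points were seen at 17 of the 129 member events, beside 9.9% of all tested events. These 17 include 2 sites of 1 CNOT10 acceptor set and 2 of 1 XRN1 acceptor set, which share their reads. At any size, 31 member events had no overlap between the groups, beside 23.1% of all.

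DIS3, the catalytic ribonuclease of the exosome, showed opposite shifts of 2 exons that lie next to each other in the gene. The 158-nt exon was included at 80.3%, 81.1% and 84.0% in Control replicates 1, 2 and 3 and at 55.9%, 51.2% and 55.3% with DFMO. All 3 DFMO libraries lay below all 3 Control libraries, and the mean fell from 81.8% ± 1.92 to 54.1% ± 2.56 (SD, n = 3; limma adjusted p = 0.000108). The 68-nt exon was included at 22.3%, 21.7% and 20.9% in Control and at 45.3%, 48.0% and 45.5% with DFMO. Its mean rose from 21.6% ± 0.743 to 46.2% ± 1.495 (adjusted p = 0.00171), again without overlap between the groups.

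The percents of the DIS3 exons added up to between 99.2 and 104.8 in every library. The values are therefore not independent of each other. Both exons are coding, and, as the sequences above show, join to the same bases on both sides. Their lengths differ by 90 nt, or 30 codons, which is also the difference in length of their coding transcripts. The annotated DIS3 proteins are known to differ in the N-terminal PIN domain, which carries an endonuclease activity beside the exonuclease of the rest of the protein. Reads behind the 158-nt exon numbered 270 to 356 per library and those behind the 68-nt exon 126 to 260.

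FIP1L1, the CPSF subunit that binds U-rich RNA and contacts poly(A) polymerase, had 3 tested coding exons with differences near or above 10 points. Each has a length that is a multiple of 3. Another tested FIP1L1 exon, of 27 nt, had 45.8% ± 7.83 in Control and 43.8% ± 3.84 with DFMO (limma adjusted p = 0.823), with overlap. The 45-nt exon rose from 26.5%, 31.7% and 26.5% in Control replicates 1, 2 and 3 to 53.7%, 63.7% and 56.9% with DFMO. This is a change of the mean from 28.2% ± 3.00 to 58.1% ± 5.10 (SD, n = 3; adjusted p = 0.00166), and at 29.9 points it was the largest difference of any tested member event. Of the reads in Control replicate 1, 24 and 43 joined the exon to its neighbours and 91 skipped it, whereas in DFMO replicate 1 the numbers were 68, 82 and 63.

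The 108-nt exon of FIP1L1 had 51.9%, 58.3% and 57.4% in Control and 66.3%, 68.8% and 62.4% with DFMO. It rose by 9.99 points (adjusted p = 0.0475), just under the 10-point minimum, and its adjusted p was 0.0628 to 0.163 without any 1 library other than DFMO replicate 3. The 69-nt exon (chr4:53391430-53391498), exon 9 of the same transcript, had 29.03%, 35.0% and 25.6% in Control and 46.3%, 39.0% and 35.8% with DFMO. Its groups did not overlap, but the difference of 10.48 points did not pass (adjusted p = 0.161). An annotated transcript of the overlapping gene AC058822.1 shares the 45-nt, 69-nt and 108-nt exons, and reads of both genes cannot be told apart.

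**Figure D2:**
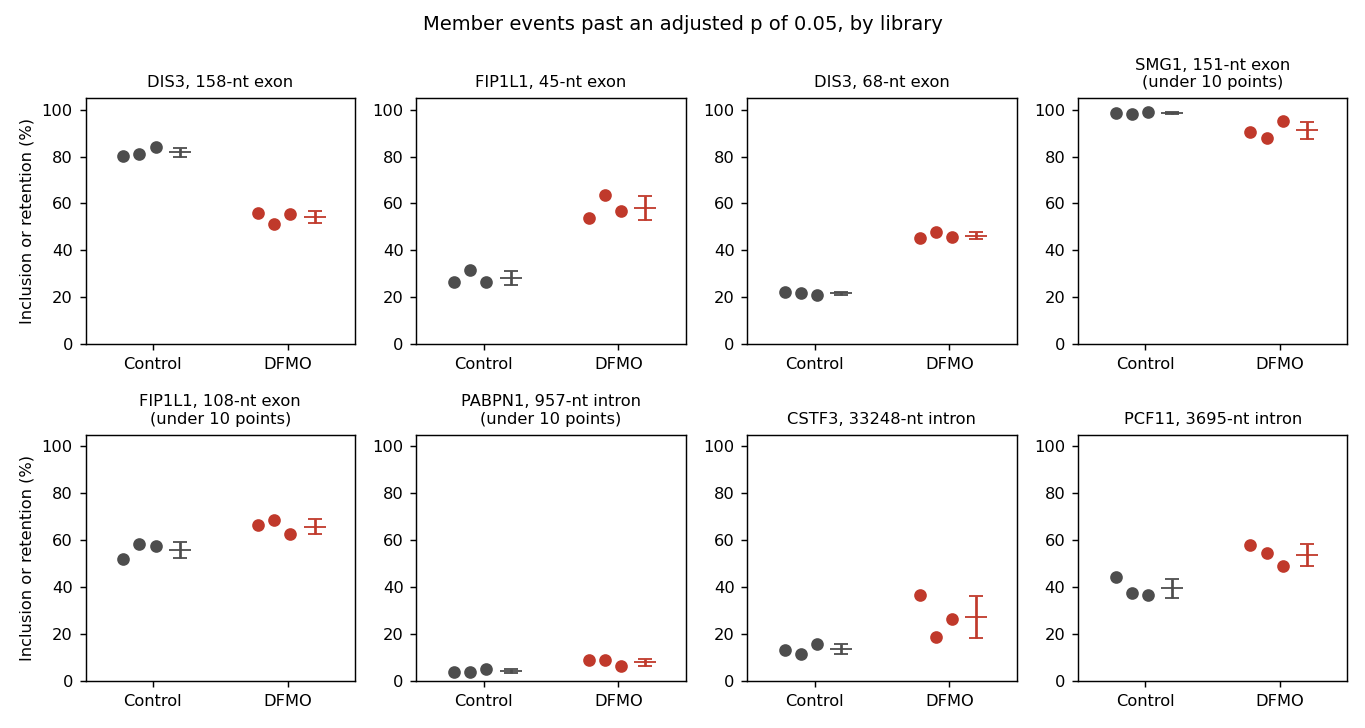
Inclusion or retention in percent (y axis) in each of the 3 Control (grey) and 3 DFMO (red) libraries for the 8 member events past an adjusted p of 0.05; points are libraries, and the mark beside them is the mean with its SD. The groups do not overlap in any of the 8 panels, and the DIS3 158-nt exon and the SMG1 exon are the events that fell.

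Other cleavage factors had large differences that did not pass. A 60-nt coding exon of CSTF2, the CstF subunit that binds the GU-rich element downstream of the cleavage site, was near absent in Control (3.45%, 1.85% and 0.66%) and reached 12.2%, 14.9% and 18.7% with DFMO (chrX:100830808-100830867). With 27 to 76 reads per library it did not pass (adjusted p = 0.0784). Of 27 tested events in 10 of the 14 cleavage and polyadenylation genes, 3 were called, all higher. These were 1 of 9 exons and 2 of 8 introns, beside called shares of 3.45% of all tested exons and 3.8% of all tested introns. The other events of this role were 5 acceptors and 5 donors, classes with called shares of 1.16% and 2.28%. Of the 27 events, 11 did not overlap between groups, beside the 23.1% of all tested events. In CPSF1, the large CPSF subunit, a 74-nt intron had 20.8%, 10.1% and 15.5% in Control and 4.84%, 2.48% and 7.78% with DFMO. The difference of -10.4 points did not pass in limma either (adjusted p = 0.0898), although the quasi-binomial test called it.

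The called introns lay in CSTF3, which encodes the CstF subunit that holds the complex together, and in PCF11, which binds the RNA polymerase II tail and is needed for termination. Both genes are known for a poly(A) site inside an early intron that gives a short transcript. The deposited table gives reads that cross from exon into intron at each end of an intron, separately. The order of the numbers was checked against the annotation. In 1169 introns with at least 60 such reads in which an annotated transcript ends, the first number was over 2 times the second in 40.3% and the second over 2 times the first in 14.3%. In 657 introns in which a transcript starts, the shares were 14.5% and 45.4%. The first number was therefore read as the 5′ end.

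The retention percent of the CSTF3 intron (chr11:33108419-33141666, minus strand) was 13.3%, 11.6% and 15.7% in Control replicates 1, 2 and 3 and 36.6%, 18.6% and 26.3% with DFMO. The mean rose from 13.5% ± 2.04 to 27.2% ± 9.01 (SD, n = 3; adjusted p = 0.00384). All of the unspliced boundary reads sat at the 5′ end: 21, 29 and 54 in Control and 73, 45 and 49 with DFMO, against 0 at the 3′ end in every library. Spliced reads numbered 51, 82 and 108 in Control and 47, 73 and 51 with DFMO. Counted at the 5′ end alone, unspliced reads were 29.5% ± 3.62 of unspliced plus spliced reads in Control and 49.3% ± 11.4 with DFMO. Reads in the middle of this intron, as given in the quality text, numbered at most 1.4 per library. Annotated transcripts of 44, 52 and 103 codons end 202, 59 and 701 nt into the intron, while the transcripts that splice it out encode 717 and 749 codons.

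Reads on the CSTF3 exons before and after that intron are given as a description. This comparison was chosen after the values were seen, in a gene picked for its intron, and its design cannot reach a p of 0.05. Over the 15 exons after the intron with at least 95% inclusion in every library, the mean log2 of scaled reads was 2.78, 2.83 and 2.86 in Control and 2.47, 2.37 and 2.48 with DFMO. All 15 were lower with DFMO, by -0.28 to -0.51. The 2 such exons before the intron had 3.08, 3.39 and 3.42 in Control and 3.10, 3.32 and 3.11 with DFMO. The means of both were lower as well, by -0.114 and -0.125, but the groups overlapped. The after-minus-before difference on this log2 scale was -0.47 ± 0.15 in the Control group. It was -0.74 ± 0.19 in the DFMO group, and the groups did not overlap (exact permutation p = 0.1, two-sided, the smallest that 3 against 3 can give).

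The retention percent of the first PCF11 intron (chr11:83157632-83161326, plus strand) was 44.2%, 37.6% and 36.6% in Control and 58.1%, 54.5% and 48.8% with DFMO. The mean rose from 39.5% ± 4.13 to 53.8% ± 4.67 (SD, n = 3; adjusted p = 0.00394), without overlap. Here too the unspliced reads sat at the 5′ end, with 79, 75 and 95 in Control and 172, 156 and 139 with DFMO. At the 3′ end Control libraries had 5, 1 and 2 and DFMO libraries 8, 7 and 4. Counted at that end alone, unspliced reads were 4.17% ± 3.87 of unspliced plus spliced reads in Control and 8.45% ± 3.05 with DFMO. The retention percent thus comes mostly from reads at the 5′ end. Spliced reads were close in number between the groups: 53, 63 and 84 in Control and 65, 68 and 75 with DFMO. A single-exon annotated transcript, PCF11-207, ends 1248 nt into this intron, and its last 30 bases hold the poly(A) signal hexamer AATAAA, shown in capitals.
PCF11-207 end: aaaatttgtgAATAAAacatataaaatatg
The hexamer, searched on the sense strand in the last 40 bases, occurs in 34.4% of the 83129 protein-coding transcripts and 23.9% of all 206694 transcripts of the annotation. The CSTF3 transcripts that end in the intron do not have these letters in that window.

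PABPN1, the nuclear poly(A)-binding protein that stimulates tail synthesis, retained its last intron more with DFMO in a different way. Retention of this 957-nt intron (chr14:23324290-23325246, plus strand) was 3.74%, 3.73% and 5.12% in Control and 8.71%, 9.04% and 6.19% with DFMO. The mean rose from 4.20% ± 0.80 to 7.98% ± 1.56 (SD, n = 3; adjusted p = 4.41e-07), a change of 3.78 points and so not called. It did not pass with no variance trend or on the percent scale (adjusted p = 0.211 and 0.179). Unspliced reads were at both ends alike: summed over the libraries of a group, 216 at the 5′ and 208 at the 3′ end in Control, and 369 and 429 with DFMO. An annotated coding transcript of 296 codons holds the whole intron. The annotated transcripts PABPN1-208, of 168 codons, and PABPN1-203 end 89 and 356 nt into it. PABPN1 also overlaps an annotated readthrough from BCL2L2, whose reads cannot be told apart from its own.

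**Figure D3:**
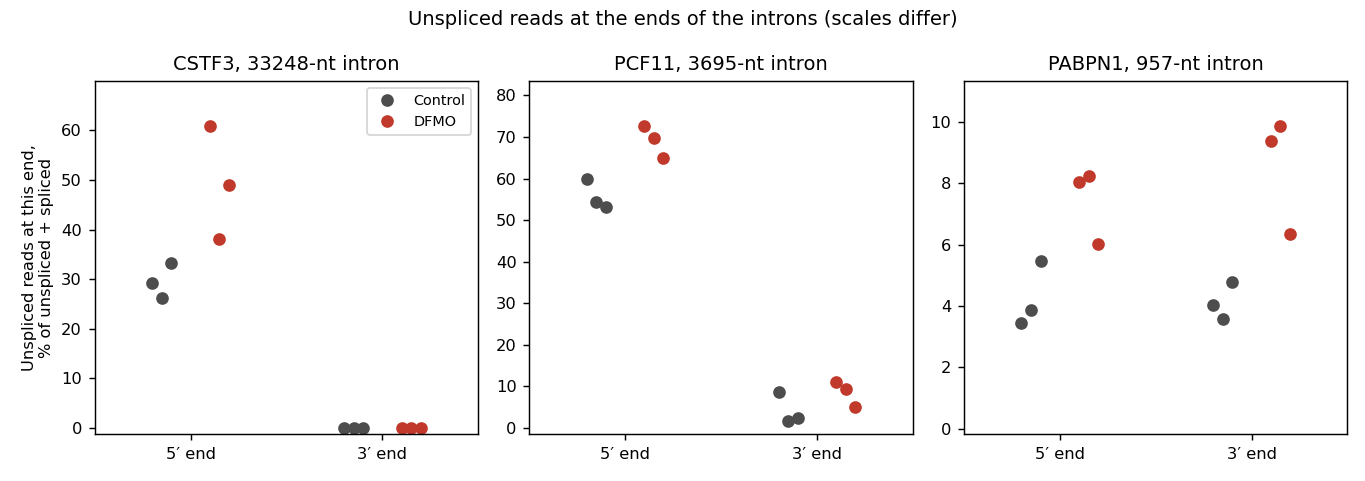
Unspliced reads at the 5′ and 3′ ends of the CSTF3, PCF11 and PABPN1 introns, as percent of unspliced plus spliced reads (y axis, scales differ), for each Control (grey) and DFMO (red) library. The 5′ ends of CSTF3 and PCF11 are far above their 3′ ends in all 6 libraries, while both ends of PABPN1 are alike, from 3.44% to 9.85%.

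Reads piled at the 5′ end were common among member introns. Over all 6 libraries, 11 of the 31 tested introns (35.5%) had a 5′ end with over 5 times the reads of the 3′ end, beside 876 of all 3683 (23.8%), and 2 (6.5%) had the reverse, beside 14.8% of all. Of these 11 introns 7 were higher and 4 lower with DFMO, and both called introns are among them. PABPC4, a cytoplasmic poly(A)-binding protein, had the most such reads: summed over libraries, its 5′ end had 1541 in Control and 1948 with DFMO, and its 3′ end 6 and 7. At its 5′ end 67.7% ± 2.27 of reads were unspliced in Control and 70.1% ± 0.739 with DFMO. An SMG1 intron of 28993 nt had 7 unspliced 5′ reads in Control and 30 with DFMO, with 0 at the 3′ end in both. Its retention was 2.24% ± 0.477 and 11.3% ± 4.92, without overlap, and did not pass (adjusted p = 0.0561). In the exosome cofactor ZFC3H1, which binds nuclear polyadenylated RNA, a 688-nt intron had 3.98% ± 2.54 and 15.05% ± 9.50 (adjusted p = 0.0654), and the difference of 11.1 points was 5.65 points without DFMO replicate 2.

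Among nonsense-mediated decay factors, 1 of 19 tested events passed the adjusted p and 0 were called by limma, with 4 at an unadjusted p below 0.05 and 0 called by the quasi-binomial test. SMG1 is the kinase that phosphorylates UPF1. Its 151-nt coding exon (chr16:18830219-18830369, minus strand), exon 52 of 63, was included at 98.5%, 98.2% and 98.99% in Control and 90.6%, 88.0% and 95.2% with DFMO. It fell by 7.30 points (adjusted p = 0.0363), and 151 is not a multiple of 3. The change rests on few skipping reads, 1 in each Control library and 9, 7 and 3 with DFMO, and its adjusted p was 0.0519 to 0.145 without any 1 library other than DFMO replicate 3. The neighbouring 190-nt exon of SMG1, outside the tested range and named after its values were seen, had 98.2%, 96.7% and 98.7% in Control and 87.9%, 94.8% and 93.9% with DFMO. SMG1 has near-identical pseudogene copies, so its reads are uncertain. UPF3A, a paralog of UPF3B that binds the exon junction complex, had the largest difference of this role in size, a donor with 60.8% ± 6.22 and 48.1% ± 3.96 that did not pass (adjusted p = 0.568).

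The exon junction complex had a single tested event. A 111-nt exon of MAGOH, a core subunit, had 91.6% ± 1.103 in Control and 94.1% ± 1.95 with DFMO (SD, n = 3; adjusted p = 0.372), with overlap. In decapping and 5′ to 3′ decay, limma called 0 of 14 events in 7 genes with 0 at an unadjusted p below 0.05 and 0 called by the quasi-binomial test. The largest difference was at an acceptor of XRN1, the cytoplasmic 5′ to 3′ exonuclease, which had 70.9% ± 9.23 and 58.1% ± 18.2 (adjusted p = 0.569) from 27 to 54 reads per library. Its difference of -12.8 points rested on single libraries: it was -3.42 without DFMO replicate 2, -7.515 without Control replicate 3 and -21.6 without DFMO replicate 1.

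Deadenylation genes held the most tested events, 41 in 10 genes, and limma called 0 of them, with 7 at an unadjusted p below 0.05. CNOT10, a scaffold subunit of CCR4-NOT, had the largest difference. Its acceptor site that adds 39 nt, in place of a site that adds 36 nt, was used at 70.8%, 82.9% and 45.4% in Control and 100.0%, 79.9% and 100.0% with DFMO. The groups overlapped and the difference of 26.9 points did not pass (adjusted p = 0.116), although the quasi-binomial test called it and its counterpart (adjusted p = 0.016). Without Control replicate 3 the difference was 16.4 points. A 5165-nt intron of PAN3, the adaptor of the PAN2 nuclease, had 7.73% ± 8.19 and 19.9% ± 5.02 (adjusted p = 0.128).

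Member events outside the tested range lie near an end of the percent scale by selection, which limits how far the groups can differ. Of 2711 events that passed coverage with a mean above 95 or below 5, 90.8% differed by less than 1 point between the groups, and 6, all exons, differed by at least 5 points. The values ran from -5.64 to 8.33 points. Of the 48 tested member exons, 77.1% are annotated in GENCODE v29, 62.5% are coding in at least 1 transcript and 43.8% have a length that is a multiple of 3. The shares over all 7500 exons were 76.8%, 55.5% and 43.4%.

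Gene levels were read from a proxy, because the table holds no gene counts. For each exon event of a gene, reads were scaled to 1000000 exon-event reads per library, 1 was added and the log2 taken, and the proxy averages these, so it also moves with inclusion, and levels are not comparable between genes. Fewer cells and less RNA per cell cannot be told apart in such bulk data. Of the 57 measured members, 14 rose and 10 fell at an adjusted p below 0.05, and 33 did not pass. Over all 9148 genes, 22.5% rose and 22.4% fell, shares at which 57 genes would give 12.8 of each. By limma 0 members reached the call of at least 1.5-fold, with 29 at an unadjusted p below 0.05 and no other tool run, while 1.09% of all genes did. The median log2 difference was 0.013 for members and 0.0002 for all genes, and the former was -0.009 without Control replicate 1 and -0.006 without DFMO replicate 1.

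Exosome genes moved in both directions: of 10 measured, 4 fell and 2 rose, beside 22.4% and 22.5% of all genes. The core ring subunit EXOSC9 had a proxy of 4.20, 4.08 and 4.10 in Control and 3.83, 3.85 and 3.88 with DFMO, and fell by 0.27 on the log2 scale (SE 0.04, adjusted p = 0.000778). EXOSC10, the nuclear exonuclease, and EXOSC8, another ring subunit, each fell by 0.24 (adjusted p = 0.00124 and 0.000399), and EXOSC2, a cap subunit, fell by 0.16. EXOSC5, also of the ring, rose by 0.20 and DIS3 by 0.17 (adjusted p = 0.00265 and 0.00613). The groups did not overlap in EXOSC9.

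Nonsense-mediated decay factors had 4 of 9 genes rise and 0 fall, beside 22.5% and 22.4% of all genes. UPF3B had 2.45, 2.45 and 2.51 in Control and 2.72, 2.85 and 2.75 with DFMO, a rise of 0.30 (SE 0.05, adjusted p = 0.00103). SMG9, which regulates SMG1, rose by 0.22, UPF2 by 0.19 and SMG5 by 0.15. UPF3A had the highest difference of this role, 0.31, but rests on 2 exon events and did not pass (adjusted p = 0.0727), and the lowest values were -0.14 for SMG8 and -0.002 for SMG1, which did not pass either. Both measured exon junction genes rose, MAGOH by 0.30 and CASC3 by 0.12 (adjusted p = 0.00185 and 0.0197). Genes of these roles outside the members did not share the direction. Of 8 other nonsense-mediated decay genes measured, 2 rose and 3 fell, and of 4 other exon junction genes 0 rose and 1 fell. MAGOH has a close paralog, MAGOHB, with which reads may be shared.

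Decapping and 5′ to 3′ decay had 1 of 7 genes pass, EDC4, the scaffold of the decapping complex, which fell by 0.23 (SE 0.05, adjusted p = 0.007). The other extremes were -0.06 for XRN1 and 0.05 and 0.14 for DCP1A and DCP1B. Deadenylation had 2 of 11 pass: CNOT1, the CCR4-NOT scaffold, fell by 0.11, and CNOT8, one of its nucleases, rose by 0.14 (adjusted p = 0.0147 and 0.0321). CNOT10 (-0.14) and PAN3 (0.10) did not pass.

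Cleavage and polyadenylation genes split, with 4 of 14 falling and 3 rising, beside 22.4% and 22.5% of all genes. CSTF3 had the lowest difference of all members, with 2.69, 2.82 and 2.81 in Control and 2.46, 2.43 and 2.46 with DFMO (a fall by 0.32, SE 0.05, adjusted p = 0.00068). CPSF2 fell by 0.20, CPSF3, the endonuclease that makes the cut, by 0.19, and FIP1L1 by 0.14 (adjusted p = 0.000921, 0.0031 and 0.0282). PCF11 rose by 0.22, CPSF1 by 0.16 and CSTF1 by 0.14 (adjusted p = 0.00595, 0.0134 and 0.0156). Of 4 poly(A)-binding genes, PABPC4 rose by 0.25 and PABPC1 by 0.15 (adjusted p = 0.000365 and 0.00357), while PABPN1 (0.05) and ZC3H14 (-0.03) did not pass. PABPC1 and PABPN1 rest on 1 exon event each, and PABPC1 has near-identical copies. Of the genes that passed, CASC3, CNOT1, CNOT8, CSTF1 and FIP1L1 lost the pass when a single library was left out.

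**Figure D4:**
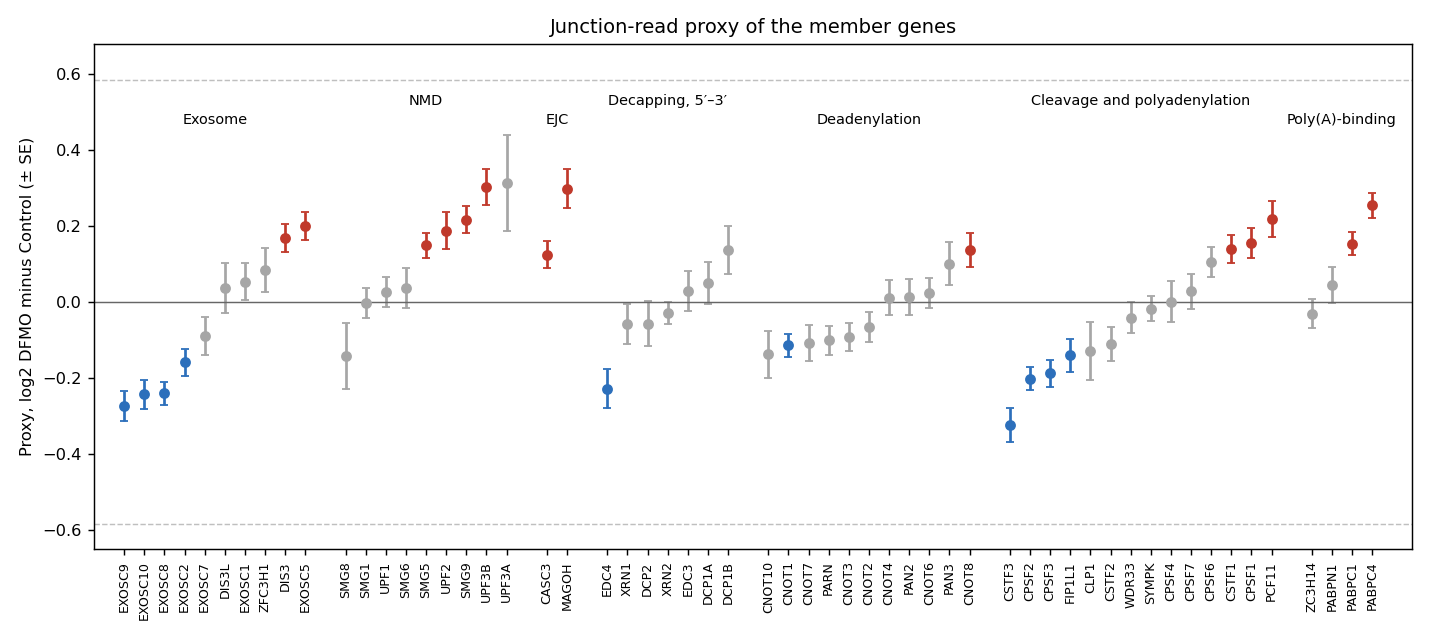
Difference of the junction-read proxy between DFMO and Control (y axis, log2, ± SE) for the 57 measured member genes, ordered within their roles; red genes rose and blue genes fell at an adjusted p below 0.05, grey ones did not pass, and dashed lines mark 1.5-fold. All 57 lie inside the dashed lines, from -0.32 for CSTF3 to 0.31 for UPF3A.

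Values for 87 other genes of the same roles stand beside these. Of 65 measured in the proxy, 15 rose and 10 fell, beside 22.5% and 22.4% of all genes. By limma 0 of them reached 1.5-fold (30 at an unadjusted p below 0.05). The values ran from -0.37 for PAPOLA, the main poly(A) polymerase, to 0.31 for LSM7, of the ring that binds deadenylated mRNA. Of their 55 tested exons, 2 were called, beside 3.45% of all tested exons, so the count was near that share. Both were higher, in genes listed under deadenylation. A 117-nt exon of TNRC6C, a GW182 protein of microRNA silencing, rose from 58.2% ± 1.54 to 74.3% ± 1.57 (SD, n = 3; adjusted p = 0.0311). ANGEL2, a relative of the CCR4 deadenylases, included its 326-nt exon at 83.9% ± 1.40 in Control and 93.9% ± 0.748 with DFMO, a rise (adjusted p = 0.00997).

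The 5 member calls depend on how the variance is modelled. With no variance trend limma called 0 of the 129 events (12 exons, 8 introns, 2 acceptors and 0 donors at an unadjusted p below 0.05), with an adjusted p of 0.0696 and 0.0768 for the DIS3 exons, 0.0876 for the FIP1L1 exon, 0.225 for CSTF3 and 0.24 for PCF11. On the percent scale the intron calls were lost as well (adjusted p = 0.153 and 0.0581) and without DFMO replicate 1 (8.95 points and adjusted p = 0.144 for CSTF3, 12.2 points and adjusted p = 0.062 for PCF11). With only introns whose reads were scored as balanced in every library, 0 of the 11 member introns tested were called. The 3 exon calls were kept in every fit without 1 library.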

How the data were processed

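The authors deposited a table with a percent for each splicing event and library. Per the labels and the series' design text, stranded mRNA libraries were sequenced as single reads of 100 bases, and per the submitters' processing notes the build was GRCh38; no source used here names an aligner or a quantifier. A deposited quality text gives a coverage score and reads per event in each library; every percent could be recomputed from those reads within 0.5 points. Event lengths come from the same deposited table. No column of per-library values was left unused.

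Log2 odds (offset 0.5 reads) of all libraries entered limma 3.58.1, run in R 4.3.3, over all tested events of a class, with a robust empirical Bayes step and a variance trend on the counting variance. P values are two-sided. The trend left almost no spread between introns, between acceptors or between donors beyond the fitted trend, so their tests lean on it. Exon tests lean on it too, but less. The proxy was fitted with limma over all genes with a mean proxy of at least 1. Fits were tested on simulated data. Exon-event reads ran from 27998389 to 37222840 per library, and reads at one event, which are not independent molecules, limit its precision.

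Members, gene lists and alternatives were chosen with earlier results of these data known. Named events are all called member events, those past the adjusted p (up to 3 per role), the largest difference in roles without either, the 2 highest and 2 lowest proxy differences per role with all called ones, and called events of other pathway genes. Further examples were picked after their values were seen. Same-numbered replicates of the groups did not deviate together (correlations -0.02, -0.002 and -0.007), so the numbers were not taken as pairs. Protein sequences were not used here. Of the events of other pathway genes, exons are described, and 1 result is not reported here.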

Additional observations from a re-analysis of the deposited data

How the results depend on the processing

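For all tested events of the table, the main counts of calls were 259 exons, 140 introns, 34 acceptors and 51 donors, and 5 member events. With no variance trend they were 14, 0, 0, 0 and 0. On the percent scale 63 introns, 10 acceptors, 11 donors and 3 member events were called. A quasi-binomial test called 8 member events. Without a size minimum the counts were 429 exons, 316 introns, 57 acceptors and 8 member events. With no filter on the mean percent 87 introns were called, and with balanced introns only 44, which left 3 member events. A trend on the pooled counting variance, added after the data were seen, gave 21 acceptors and 16 donors. The proxy called 100 genes, 294 with a pseudocount of 0.1 and 4109 without a size minimum. Leaving out 1 library at a time gave 160 to 222 exons, 98 to 137 introns, 10 to 33 acceptors, 29 to 38 donors and 3 to 6 member events. Control replicate 3 (161 exons without it), DFMO replicate 1 (160 exons, 10 acceptors, 3 member events) and DFMO replicate 2 (19 acceptors, 29 donors) moved a count most. No event or gene that passed the adjusted p changed direction in these fits. Of the genes that did not pass, the proxy difference lay on both sides of 0 over the fits without 1 library for CNOT4, CPSF4, CPSF7, DIS3L, EDC3, PAN2, PABPN1 (-0.003 to 0.079) and SMG1 (-0.018 to 0.021). With a replicate block, although the numbers pair no samples, 254 exons, 132 introns, 35 acceptors, 48 donors, 5 member events and 100 genes were called. Reads per event limit what low-coverage introns and acceptors can show.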
